A study of Mus musculus with 4 samples.

Results

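The cells described here are non-cycling, undifferentiated cells in which no Pax7 transcript was counted. They were selected by 6 genes in the deposited log2(CPM + 1) values, where CPM is each count scaled to a common total per cell: Pax7 at 0, Myog under 7, Ckm at 0, Top2a at 0, Mki67 at 0 and Pclaf under 7. Of 5910 cells kept, 59 met all 6 conditions. They were set against the 617 cells that met the other conditions and had Pax7 above 0, giving 676 gated cells in all.

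The series holds 4 single-cell libraries of muscle stem cells from skeletal muscle of wild-type C57BL/6 mice, young or aged. The cells spent 7 days on polydimethylsiloxane (PDMS), a silicone rubber, of either 12 kPa (soft) or 29 kPa (stiff). All 4 cultures were in DMEM with 10% fetal bovine serum and penicillin with streptomycin, and cells were lifted with trypsin before 10x Genomics 3′ capture. The age in months, the number of animals and any pooling are not given in the sources used here, and each age and substrate is 1 library, so differences between libraries have no replicate check. Values for the 4 libraries are given in the order young soft, young stiff, then aged soft, aged stiff, unless named. The 59 cells came as 12, 20, 15 and 12 from these libraries, and the 617 with Pax7 as 175, 205, 114 and 123.

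Pax7 is the transcription factor that marks muscle stem cells (satellite cells). On activation these cells turn on Myod1 and Myf5, divide, and then either commit to differentiation through Myog and withdraw from the cycle, making sarcomere proteins such as Acta1 and creatine kinase (Ckm), or return to a Pax7-positive, Myod1-low state. A cell with neither Pax7, Myog, Ckm nor cycle genes is therefore placed by absences alone, and what else it transcribes has to be read from other genes.

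Depth in these tables was 28613 to 37081 unique molecular identifiers (UMIs, counted molecules) per kept cell by library median. The 59 cells were shallower than that, with a median of 20208 UMIs (5557 to 42801), against 22446 in the gated cells with Pax7. By library, the medians without and with Pax7 were 27351 and 25845 in young soft, 18968 and 20979 in young stiff, 19799 and 21832 in aged soft, and 21266 and 23154 in aged stiff. Mitochondrial transcripts made up 5.84% of UMIs at the median, against 5.40% with Pax7. A single barcode occurred in more than 1 library.

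The line between the compared cells is a matter of few molecules. Of the 676 gated cells, 59 had no Pax7 UMI, 96 had 1, 109 had 2 and 412 had 3 or more. When each gated cell was thinned to 2000 UMIs, a Pax7 UMI was found in 36.9% of gated cells in young soft, 23.6% in young stiff, 27.1% in aged soft and 19.3% in aged stiff. Ckm-positive cells, which should lack Pax7, gave 1.37% to 1.87% at the same depth, and 13.4% to 18.7% before thinning at a median of 39453 UMIs. Unthinned, 88.4% to 93.6% of gated cells had a Pax7 UMI. At the other edges of the gate, 37 of the 59 cells had Myog at 0 and 22 had some. In all, 10 cells lay within 1 log2 unit below the Myog limit, the highest at 6.997, while 31 otherwise eligible cells lay within 1 unit above it, the lowest at 7.10. Pclaf was 0 in 54 of the 59.

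As a share of kept cells, the Pax7-zero gated cells made up 0.882% in young soft (95% Clopper-Pearson interval 0.457% to 1.54%), 1.35% in young stiff (0.828% to 2.08%), 1.13% in aged soft (0.631% to 1.85%) and 0.690% in aged stiff (0.357% to 1.20%). As a share of gated cells they were 6.42% (3.36% to 10.9%), 8.89% (5.51% to 13.4%), 11.6% (6.66% to 18.5%) and 8.89% (4.68% to 15.0%) in the same order. All 4 intervals overlap, and they cover counting error only.

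The label was checked against its 4 markers. Myod1, the activation factor, had a mean of 756 CPM over the 59 cells against 705 CPM with Pax7. Cdh15, the M-cadherin of satellite cells, had 247 against 256 CPM. Spp1, the secreted phosphoprotein osteopontin, had 10286 against 14731 CPM, and Igfbp5, an insulin-like growth factor binding protein, had 1855 against 3224 CPM. These means are over cells, and the 59 cells fell into 2 sets.

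In 50 of the 59 cells Acta1, the skeletal muscle actin, was at or below 1141 CPM, and in the other 9 it was at or above 7348 CPM, with no cell between. This split at 2000 CPM was drawn after the values were seen, so it carries no test. The 9 high cells were 3 of the 12 in young soft, 4 of the 15 in aged soft and 2 of the 12 in aged stiff. None of the 20 young stiff cells was among them, which allows a share of up to 15% by the limit of 3 counts over 20 cells and 16.8% by the Clopper-Pearson interval. Of the 617 gated cells with Pax7, 2 were above 2000 CPM, both in aged stiff.

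The 9 Acta1-high cells went against the word undifferentiated. Their Acta1 ranged from 7348 to 59346 CPM with a median of 14785. Mylpf, the fast skeletal regulatory myosin light chain, had a mean of 16089 ± 4583 CPM (SD, 9 cells), against 110 CPM in the 50 and 19540 CPM in Ckm-positive cells. The 10-gene myocyte list summed to 81278 CPM in the 9 cells, 503 CPM in the 50 and 76477 CPM in the Ckm-positive cells, although Ckm itself was at 0 by selection. Myog was low by selection but present in 8 of the 9.

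Cytoplasmic actins went the other way. Actb, the beta-actin of the non-muscle cytoskeleton, lay between 0 and 144 CPM in the 9 cells, against 180 to 9947 CPM (median 4254) in the 50 and a median of 105 CPM in Ckm-positive cells. Actg1, its gamma counterpart, had a mean of 55.1 CPM in the 9 cells and 1877 CPM in the 50. Of the other markers, Spp1 had a mean of 456 CPM in the 9 cells and 12055 CPM in the 50, and Hes1, a Notch effector, 4.01 against 297 CPM. Malat1, a nuclear long non-coding RNA, had a median of 304 CPM in the 9 cells and 19040 CPM in the 50. It was not low in all 9. A young soft cell had 13341 CPM and an aged stiff cell 14868 CPM, inside the range of the 50 (2854 to 73455 CPM). Mitochondrial share in the 9 cells ran from 0.928% to 17.6%. Actb, Actg1 and Malat1 were picked for this description after their values were seen.

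**Figure D1:**
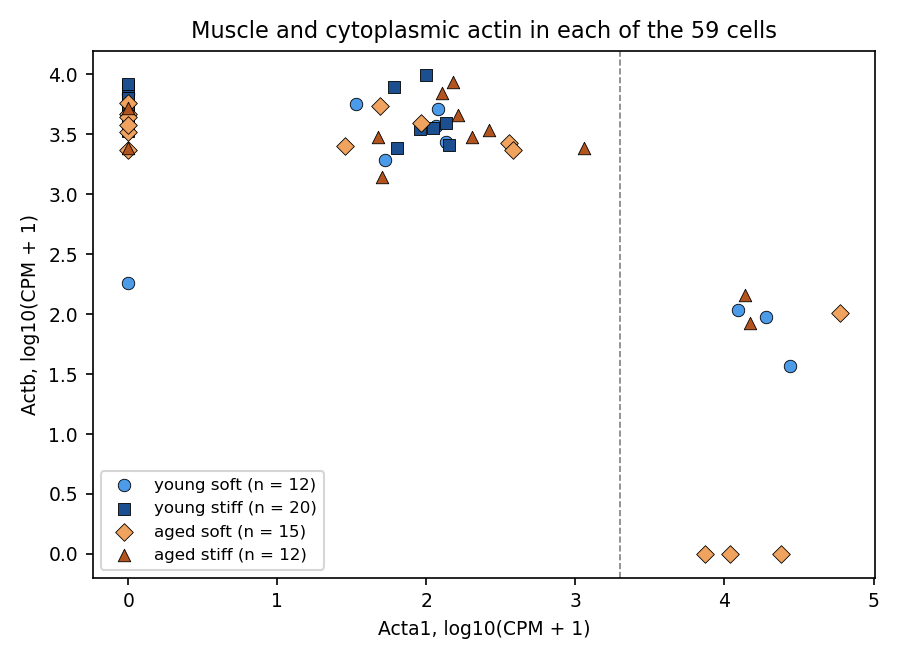
Acta1 (x axis) and Actb (y axis) in each of the 59 gated cells without Pax7, both as log10(CPM + 1), with 1 point per cell and library by colour and shape; the dashed line is at 2000 CPM of Acta1. The 9 cells right of the line all lie at or below 144 CPM of Actb, and none is from young stiff.

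Promoters of 3 genes that were high together in those 9 cells are shown because Acta1 defines the split and Mylpf and Myl1 are myosin light chains high in the same cells. Each is the 150 bases before the annotated RefSeq start, read 5′ to 3′ on the gene's strand in GRCm38.p6, with matches in capitals. The Acta1 window is chr8:123894776-123894925 on the minus strand, and its capitals mark a CArG box, the motif bound by serum response factor, ending 63 bases before the start. The Mylpf window is chr7:127211458-127211607 on the plus strand, and its capitals mark an E-box (CANNTG, the motif of Myod1 and Myog), ending 45 bases before the start. The Myl1 window is chr1:66945057-66945206 on the minus strand and held neither motif.
Acta1: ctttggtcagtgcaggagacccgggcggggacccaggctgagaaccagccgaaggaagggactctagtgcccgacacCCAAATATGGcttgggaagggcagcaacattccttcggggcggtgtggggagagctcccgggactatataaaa
Mylpf: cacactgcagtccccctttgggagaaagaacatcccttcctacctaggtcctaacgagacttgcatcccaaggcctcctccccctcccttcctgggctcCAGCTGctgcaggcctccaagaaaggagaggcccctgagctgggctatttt
Myl1: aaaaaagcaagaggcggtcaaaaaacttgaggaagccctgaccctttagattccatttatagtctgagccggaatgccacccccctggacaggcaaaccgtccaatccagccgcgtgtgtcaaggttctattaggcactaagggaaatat
Both motifs read the same on either strand, and neither overlapped the other in these windows. Over 32851 annotated mouse starts, 47.7% of windows of this length held at least 1 E-box and 0.916% a CArG box. A match describes letters only.

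The other 50 cells carried Myod1 and Cdh15 at levels near those of the cells with Pax7, with lower means over cells of Myf5 and Igfbp5. At least 3 of 7 progenitor genes (Myod1, Myf5, Cdh15, Des, Itga7, Vcam1 and Chrdl2) had a UMI in 49 of the 50, and at least 5 in 33 of the 50. At least 3 were also found in 615 of 617 gated cells with Pax7, 7 of the 9 Acta1-high cells and 2421 of 2429 Ckm-positive cells, so that count does not set the 50 apart. At least 5 were found in 492 of 617, 3 of 9 and 1080 of 2429. Myod1 averaged 867 CPM, Cdh15 281 CPM, Myf5 181 CPM and Igfbp5 2124 CPM in the 50 cells. The corresponding means with Pax7 were 705, 256, 242 and 3224 CPM. Chrdl2, a secreted BMP inhibitor, was at 0 in all 50 and had a UMI in 28 of the 617. A count of 0 in 50 cells allows a share of up to 7.11% by the Clopper-Pearson interval, so Chrdl2 does not set the 50 apart.

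Leukocyte and endothelial markers were at or near 0 in the 50 cells. Ptprc, the pan-leukocyte marker, was at 0, and 8 of 13 macrophage or monocyte genes were at 0 with a summed mean of 12.6 CPM. The 7 endothelial genes present in the tables summed to 27.1 CPM, with Cdh5 and Kdr at 0. The fibroblast list, 14 genes, summed to a median of 1130 CPM per cell, against 1127 CPM in gated cells with Pax7, and was led by Col3a1, a fibrillar collagen, in both. In the 9 Acta1-high cells 12 of those 14 genes were at 0, Pdgfra and Dcn among them. The smooth muscle list summed to a mean of 2119 CPM in the 50 cells and 2004 CPM with Pax7, led by Acta2. Fibroblast and smooth muscle genes were thus present in both classes, and their part in the results below was not tested.

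A few of the 50 stood apart from the rest, and they are named here because they set several values between libraries. They were singled out after their values were seen. A young stiff cell had Spp1 at 71017 CPM, Mmp13 (collagenase 3) at 5934, Ctsk (cathepsin K) at 1751, Sfrp4 at 3210, Col1a1 at 6469 and Col1a2 at 5643 CPM. In that cell Myod1, Myf5, Des and Igfbp5 were all at 0, while Cdh15 was at 48.6 CPM and Vcam1 at 97.3 CPM. Dcn was at 146 CPM and Pdgfra at 48.6 CPM. Its fibroblast list summed to 16684 CPM, and the next highest of the 59 cells had 4923 CPM.

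A young soft cell was dominated by endoplasmic reticulum chaperones. Hspa5, the chaperone BiP, stood at 48948 CPM, Creld2 at 11517 CPM and Manf at 6838 CPM. Its endoplasmic reticulum list summed to 157281 CPM, against a median of 3746 CPM over the 59 cells. The next highest value, 26790 CPM, was in an Acta1-high cell, also from young soft. The chaperone-rich cell was the shallowest of the 59, at 5557 UMIs, and had 0.360% mitochondrial UMIs. Myod1 was at 0 and Myf5 and Des were each at 360 CPM.

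A second young stiff cell carried interferon-stimulated genes, with Isg15 at 5157 CPM and Ifit1 at 2579 CPM. Its interferon list summed to 22013 CPM against a median of 1545 CPM, and it kept Myod1 at 1447 CPM. An aged stiff cell had Saa3, an acute-phase protein, at 3407 CPM with Myod1 at 1363 CPM. In another young stiff cell Apoe, a lipid carrier, reached 14909 CPM, and in another young soft cell 7342 CPM.

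**Figure D2:**
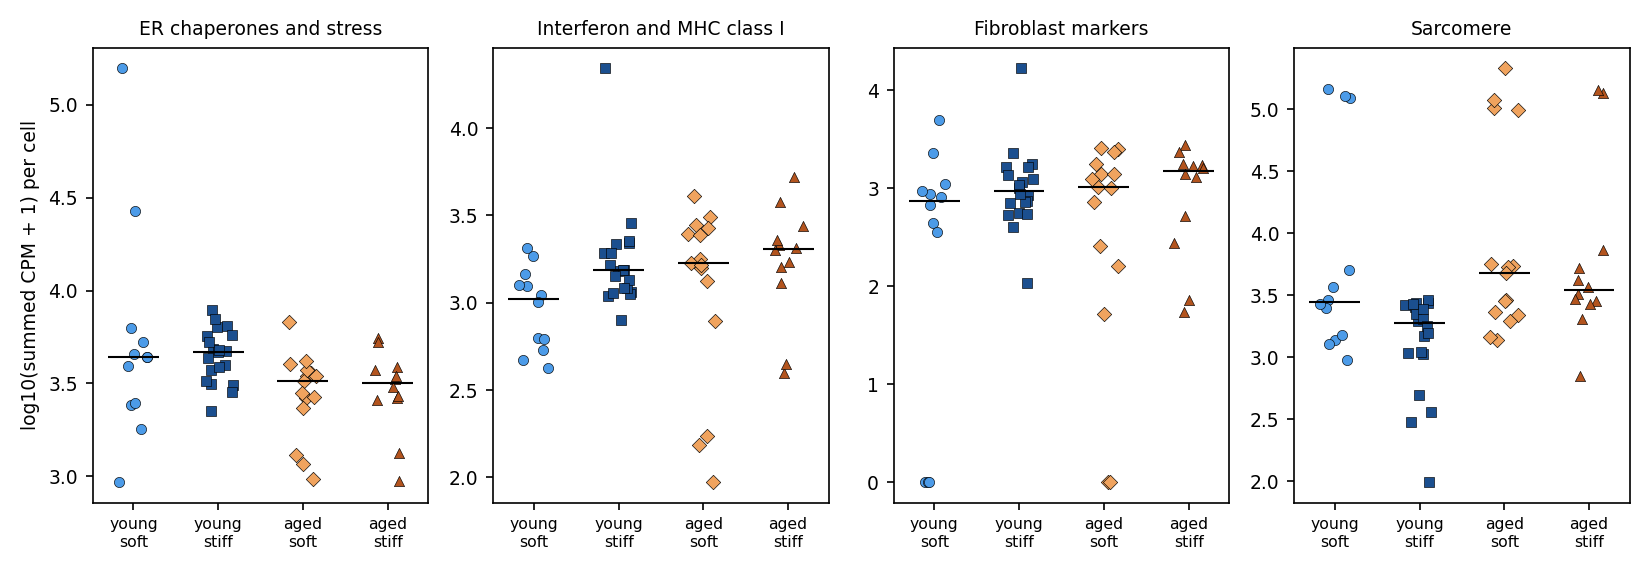
Summed CPM per cell, as log10(sum + 1), for 4 gene lists in the 59 cells by library, with 1 point per cell and a bar at the library median. Single cells stand above the rest in the endoplasmic reticulum list (157281 CPM, young soft), the interferon list (22013 CPM, young stiff) and the fibroblast list (16684 CPM, young stiff), and 9 cells stand above the rest in the sarcomere list.

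Gated cells without and with Pax7 were then compared gene by gene, with the mean CPM of each class in each library as 1 value, so 4 paired values a class. The test was limma on log2(mean CPM + 5) with library as a block, over 7952 genes. At a Benjamini-Hochberg adjusted p under 0.05, 48 genes were higher without Pax7 (0.604% of genes tested) and 10 were lower (0.126%). Of the 48 higher genes 18 were among the 35 tested sarcomere genes. Genes needed a mean of at least 10 CPM over both classes, so some could be tested only through the class where they were high. With Myog and Pclaf at 0, 28 sarcomere genes reached that mean. The 18 of 35 are therefore a description and no evidence about the list. The counts of 48 and 10 moved with single libraries. They became 0 and 2 without young soft, 179 and 123 without young stiff, 0 and 0 without aged soft, and 0 and 1 without aged stiff. They also became 0 and 0 when Myog and Pclaf had to be 0, which left 33 cells without Pax7, with 563 genes at an unadjusted p under 0.05 against 1260 before.

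The median log2 difference over all tested genes was -0.14, and with median-of-ratios scaling it was -0.02. Under that scaling the higher share of the called genes was 91.4%, against 82.8%. The pseudobulks without Pax7 averaged 12 to 20 cells and those with Pax7 114 to 205. Differences below are best read relative to -0.14. Lack of overlap between the classes is given below as a description of genes mostly picked by the size of their difference. The share of all tested genes without overlap is not given here, so lack of overlap is no evidence for a single gene.

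Myl1, the fast alkali light chain, averaged 4785 CPM in young soft, 27.0 in young stiff, 7696 in aged soft and 4296 in aged stiff without Pax7. With Pax7 the same libraries had 31.1, 21.8, 47.1 and 92.8 CPM. The 3 libraries that held Acta1-high cells were far above every value with Pax7, and young stiff was not. The log2 difference was 4.99 ± 0.82 (SE, limma adjusted p = 0.0223). Among the 50 Acta1-low cells the values were 27.4, 27.0, 94.0 and 128 CPM, a difference of 0.37.

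The other named higher genes also rose over all 59 cells, and most returned near the level with Pax7 in the Acta1-low cells. Acta1 rose by 4.35 log2 units (limma adjusted p = 0.0341), Mylpf by 4.10, the oxygen-binding Mb by 3.96, the calcium buffer Casq1 by 3.96, Myh1 by 3.94, Tnnt3 by 3.90, Mef2c by 3.88, Smpx by 3.82, Myl4 by 3.76, Myh3 by 3.61 and Cox6a2 by 3.51. Mymk (myomaker, the fusion protein) averaged 328, 47.9, 349 and 324 CPM without Pax7. With Pax7 it was 34.5, 33.2, 44.6 and 40.6 CPM, so the classes did not overlap. Its difference was 2.31 ± 0.35 (limma adjusted p = 0.0223). Of the 48 higher genes, 42 were at least 2 times higher in all 59 cells, and none was at least 2 times higher in the Acta1-low cells. In 46 of the 48 the Acta1-low cells were lower than, or within 1.5 times of, the cells with Pax7. The exceptions were Myl4 and Cox6a2, at 0.77 and 0.69 log2 units in the Acta1-low cells.

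The 10 lower genes were Igfbp5, Malat1, Ly6a, Ly6d, Ccl11, Prr9, Nfat5, Rab31, Pik3r1 and Dstn, and each was lower in all 4 libraries. Igfbp5 averaged 1529 CPM in young soft, 1330 in young stiff, 2285 in aged soft and 2517 in aged stiff without Pax7. With Pax7 it was 2026, 2108, 5216 and 4944 CPM. Every library was lower without Pax7, while the ranges of the classes overlapped, the aged libraries being higher in both. The log2 difference was -0.81 ± 0.11 (limma adjusted p = 0.0223), and -0.57 in the Acta1-low cells.

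Ly6a, the surface protein Sca-1, averaged 9.15, 22.1, 128 and 80.0 CPM without Pax7 in the same order of libraries, and 29.2, 49.5, 338 and 188 CPM with Pax7. It fell by 1.21 log2 units (limma adjusted p = 0.0223) on 68 UMIs. Ly6d, a related surface protein, averaged 15.3, 0, 7.95 and 131 CPM against 98.7, 149, 141 and 221 CPM. Its difference of -2.88 rested on 31 UMIs, and 1 aged stiff cell at 1468 CPM held most of the last value. Ccl11, the chemokine eotaxin, and Prr9 rested on 12 and 7 UMIs, with differences of -2.02 and -2.04.

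Nfat5, the osmotic-stress transcription factor, did not overlap between the classes. It averaged 45.0, 27.8, 35 and 38.6 CPM without Pax7 and 78.9, 71.4, 89.6 and 83.1 CPM with Pax7, a log2 difference of -1.06 ± 0.19 (limma adjusted p = 0.0341). Pik3r1, the regulatory subunit of PI3-kinase, and Rab31, a small GTPase, fell by 0.97 and 1.03 log2 units without overlap (limma adjusted p = 0.0459 each). Dstn, the actin-severing destrin, fell by 0.49, and Malat1 by 0.60 log2 units. Of the 10 lower genes, 7 were at least 1.5 times lower also in the Acta1-low cells. Malat1, Dstn and Igfbp5 were not, at -0.36, -0.23 and -0.57.

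**Figure D3:**
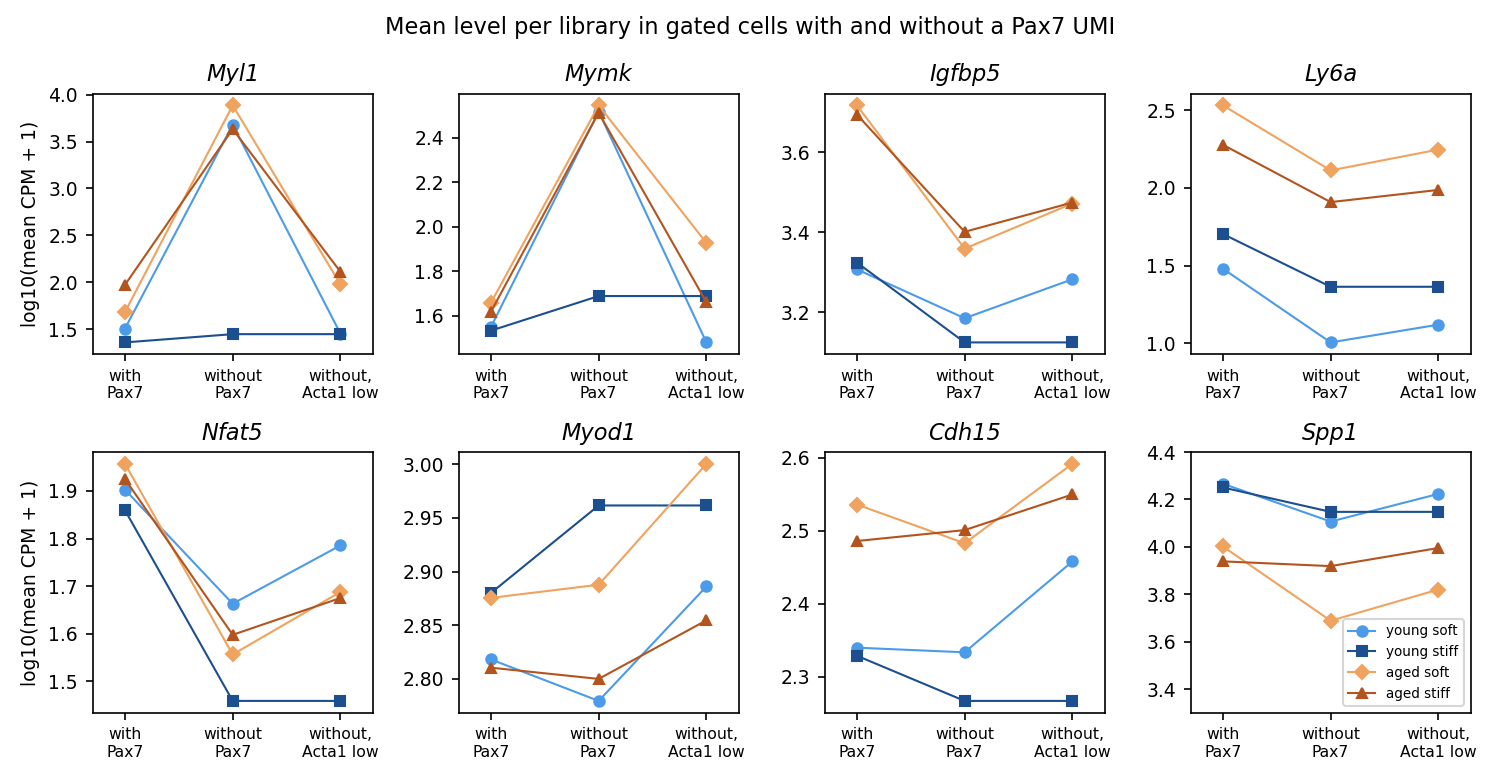
Mean CPM per library, as log10(mean + 1), for 8 genes in gated cells with Pax7, without Pax7, and without Pax7 and with low Acta1; each line is 1 library. Myl1 and Mymk stand up in the middle class in 3 of 4 libraries and return near the level with Pax7 among Acta1-low cells, while Igfbp5, Ly6a and Nfat5 are lower in all 4 libraries in both classes without Pax7.

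Among genes linked to the stem cell state, Myod1 and Cdh15 showed small differences, and others here had larger differences that did not pass. Myod1 averaged 601, 914, 771 and 630 CPM without Pax7, and 657, 758, 750 and 645 CPM with Pax7, a log2 difference of 0.04 ± 0.11 (limma adjusted p = 0.907). Cdh15 differed by -0.09 ± 0.13 (adjusted p = 0.789). Spp1 was lower in all 4 libraries by 0.49 ± 0.11 on the log2 scale, with an adjusted p of 0.0681, and among the Acta1-low cells it was lower in 3 of 4 (-0.23). Myf5 averaged 161, 92.3, 209 and 195 CPM against 296, 219, 219 and 224 CPM, without overlap (log2 difference -0.58 ± 0.19, adjusted p = 0.181). Among the Acta1-low cells Myf5 averaged 212, 92.3, 270 and 234 CPM, overlapping the values with Pax7, above them in both aged libraries and below them in both young ones (-0.33). In the progenitor and quiescence list none of 24 tested genes passed, 23 had negative differences and the median was -0.47, beside 68.1% negative among all genes tested. In the Acta1-low cells 22 were negative, with a median of -0.33, beside a median of -0.09 for all genes. The negative share of all genes in those cells is not given here. In that list Gas1, a growth arrest gene, differed by -0.74 ± 0.16 (adjusted p = 0.0621) and Fgfr4, a fibroblast growth factor receptor, by -0.71 (adjusted p = 0.104).

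Notch and growth factor genes had no call either. Of 13 Notch genes tested 10 were negative, beside 68.1% negative among all genes tested. The median was -0.24, and -0.09 in the Acta1-low cells, as for all genes. Hey1, a Notch target, averaged 0, 17.8, 3.19 and 17.9 CPM without Pax7 and 41.3, 39.5, 24.3 and 25.7 CPM with Pax7, without overlap, on 11 UMIs (adjusted p = 0.0943). Hes1 differed by -0.69 ± 0.16 (adjusted p = 0.0681). Of 15 receptors, Sproutys and syndecans 14 were negative, with a median of -0.48. In the Acta1-low cells 12 were negative, with a median of -0.33, and the negative share of all genes there is not given here. Dusp6, a phosphatase of ERK, did not overlap between classes (adjusted p = 0.154), and Spry1 differed by -0.55 ± 0.23 (adjusted p = 0.271).

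Genes of cell cycle control were mixed. Of 25 tested inhibitor and senescence genes 12 were positive and 13 negative, beside 68.1% negative among all genes tested, and none passed. Cdkn1b (p27) averaged 33.2, 18.4, 29.7 and 13.4 CPM without Pax7 and 44.5, 42.1, 57.3 and 43.7 CPM with Pax7, without overlap (adjusted p = 0.101). Cdkn1a (p21) differed by 0.67 ± 0.31 (adjusted p = 0.320). It averaged 893 CPM in the 9 Acta1-high cells and 190 CPM in the 50. Cdkn1c (p57) was below the filter, at 3.18 to 8.41 CPM without Pax7 and 5.48 to 18.4 CPM with Pax7. Ccnd1 (cyclin D1) differed by -0.90 ± 0.24 (adjusted p = 0.105).

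Matrix, adhesion and mechanical target genes had negative medians and no calls, beside 1 gene of the growth factor axis. Of all genes tested, 68.1% were negative. Of 36 matrix genes 32 were negative (median -0.37), of 25 integrin and adhesion genes 23 (median -0.42), of 21 YAP and TAZ targets 19 (median -0.45) and of 23 TGF-beta and BMP genes all 23 (median -0.47). In the Acta1-low cells, where the median of all genes was -0.09, these were 25 of 36 (-0.15), 22 of 25 (-0.21), 19 of 21 (-0.29) and 19 of 23 (-0.21). The negative share of all genes in the Acta1-low cells is not given here, so those counts are a description only. Thbs1 (thrombospondin 1) averaged 18.4, 20.7, 63.6 and 46.3 CPM without Pax7 and 90.3, 73.6, 86.1 and 66.9 CPM with Pax7, without overlap (log2 difference -1.13 ± 0.28, adjusted p = 0.0821). Its Acta1-low values, 24.5 to 71.2 CPM, overlapped those with Pax7. Lamb1, a laminin chain, also did not overlap (adjusted p = 0.0699). Among secreted factors Wnt5a did not overlap (adjusted p = 0.0944). In the insulin-like growth factor axis Igfbp5 alone passed of 17 tested.

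Sterol and lipid synthesis genes were all negative, 29 of 29, beside 68.1% negative among all genes tested. Their median was -0.51, -0.41 in the Acta1-low cells, with no call. Msmo1, a sterol oxidase, averaged 30.9, 90.4, 21.6 and 38.2 CPM without Pax7 and 102, 102, 88.2 and 94.9 CPM with Pax7 (log2 difference -1.19 ± 0.25, adjusted p = 0.0564). Oxidative phosphorylation genes leaned the other way, with 50 of 52 positive, beside 2540 of all 7952 genes tested. Their median was 0.27, which was 0.06 in the Acta1-low cells. In that list 2 genes passed, the muscle isoforms Cox6a2 and Cox8b. Endoplasmic reticulum genes had 23 of 30 positive and a median of 0.20, with no call. In the Acta1-low cells the median was 0.30, with 4 of 30 negative. Both sets hold the young soft cell whose list sum was 157281 CPM, and the median without that cell is not given here. In the collagen folding list, Plod3, a collagen lysine hydroxylase, was higher in all 4 libraries without overlap, at 0.41 ± 0.20 (adjusted p = 0.339).

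**Figure D4:**
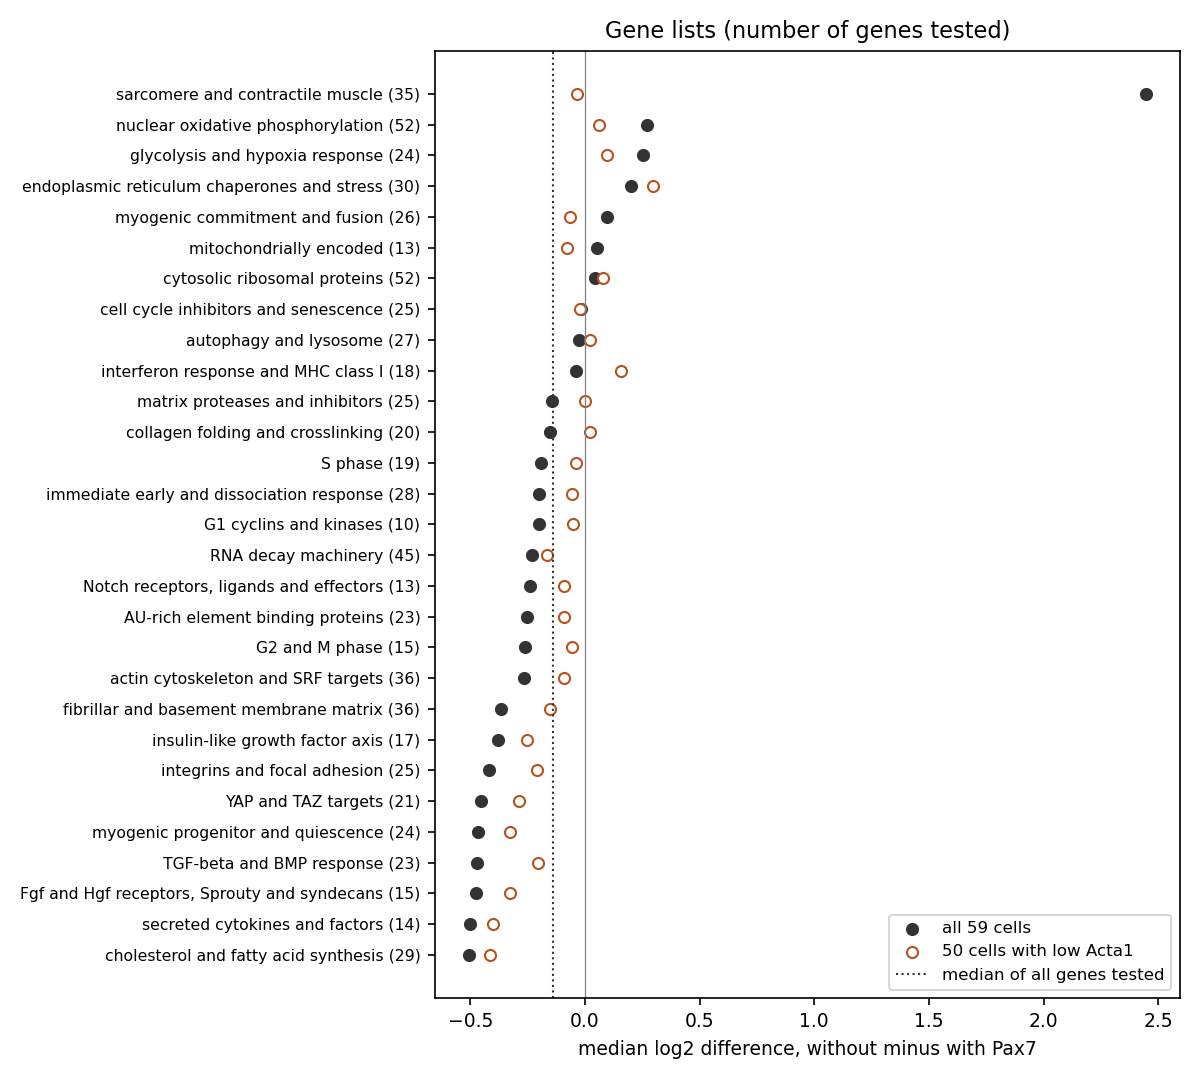
Median log2 difference, without minus with Pax7, for each of 29 gene lists (number of genes tested in brackets), with filled points for all 59 cells and open points for the 50 with low Acta1; the dotted line is the median of all genes tested, -0.14. The sarcomere list stands at 2.45 with all 59 cells and at -0.03 with the 50.

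Whether the difference between cells without and with Pax7 depended on age was tested as an interaction across the 4 libraries, 2 a group. By limma no gene of 7952 passed, the smallest adjusted p being 0.610, and 284 had an unadjusted p under 0.05. Among the genes with the smallest unadjusted p were Mest, Apoe, Car3 and Ptgis. Apoe averaged 993 and 1055 CPM without Pax7 in the young libraries, against 1021 and 713 CPM with Pax7. In the aged libraries, soft then stiff, it averaged 0 and 61.4 CPM without and 313 and 418 CPM with Pax7. Mest, an imprinted gene, averaged 174, 81.4, 30.0 and 73.8 CPM without Pax7 and 59.4, 33.1, 127 and 125 CPM with Pax7. The interaction was -4.59 ± 0.79 for Apoe and -2.65 ± 0.45 for Mest, each with a limma adjusted p of 0.610. With Myog and Pclaf at 0, Apoe (-5.29, limma adjusted p = 0.000347), Col1a1 (-3.85, adjusted p = 0.0388) and Tnnt1 (2.59, adjusted p = 0.0388) passed. That gate left 6, 12, 9 and 6 cells without Pax7, in the order of libraries. The highest Apoe values in its young cells were 7342 CPM in 1 young soft cell and 14909 CPM in 1 young stiff cell. Tnnt1 levels per cell are not given here. The young Col1a1 level came from 1 young soft cell at 2127 CPM and, in young stiff, from the Mmp13-bearing cell at 6469 CPM and another at 102 CPM.

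Between the 4 libraries the 59 cells can only be described, since each library is a single sample. Genes at 20 CPM or more in either library were compared by the log2 ratio of mean CPM + 5. On stiff against soft, 614 of 6628 genes were at least 2 times higher in the young (9.26%) and 644 lower (9.72%), and in the aged 687 of 6401 were higher (10.7%) and 467 lower (7.3%). In aged against young, 534 of 6469 were higher (8.25%) and 883 lower (13.6%) on soft, and 493 of 6607 higher (7.46%) and 562 lower (8.51%) on stiff. The comparisons share libraries. In the gated cells with Pax7, which are 114 to 205 a library, 0.0969% to 2.18% of genes passed 2-fold in the same comparisons. Of the 48 named extremes of the 4 comparisons, 34 drew over 50% of the higher library's summed CPM from 1 cell, and 21 over 90%.

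Young stiff had no Acta1-high cells. Myl1 was 192 times higher in young soft than in young stiff (1925 against 12 UMIs, exact conditional binomial interval 109.6 to 372, counting error only), and 187 times higher in aged stiff than in young stiff (106 to 362). In the Acta1-low cells the corresponding log2 ratios were -0.02 and 2.06. Tnnc2, fast troponin C, had 528 UMIs in young soft and 1 in young stiff, a ratio of 631 with an interval from 113 to 24987. The sarcomere list had a median log2 ratio of -4.06 in young stiff against young soft and of -0.02 in the Acta1-low cells, over genes of which some, such as Tnnc2, passed the 20 CPM filter only through young soft. In aged stiff against young stiff its median was 3.59, and it was 0.74 in the Acta1-low cells and 0.61 in cells with Pax7. Myl1 was 1.87 log2 units higher in aged stiff than young stiff with Pax7 too. The cells with Pax7 were not limited to low Acta1, and the 2 of them above 2000 CPM of Acta1 were in aged stiff.

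Another pair of list differences moved when single cells were left out.
Of 31 endoplasmic reticulum genes, 21 were at least 2 times lower in young stiff than in young soft, with a median log2 ratio of -1.52, beside 9.72% of all genes. Without the chaperone-rich young soft cell 5 of 31 were, with a median of -0.13. In aged against young on soft, 24 of 29 were lower with a median of -1.96, beside 13.6% of all genes, and 8 of 29 with a median of -0.68 without that cell. The cell with the next highest sum in this list, 26790 CPM, is also from young soft and was not left out. Of 23 interferon and MHC class I genes, 14 were at least 2 times higher in young stiff than in young soft (median 1.42), beside 9.26% of all genes, and 1 of 23 was without the interferon-rich cell (median 0.27). Mmp13, Ctsk and Ifit1 each came from 1 cell of the 20 in young stiff, and Dqx1 likewise.

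Other genes had UMIs in several cells. Apoe had 349 UMIs in young soft, in 5 of 12 cells, and 0 in the 15 aged soft cells, at least 101-fold higher against a floor of 3 UMIs in the aged library, where the exact interval begins at 82.1. On stiff it had 298 UMIs in young and 15 in aged, 14.4 times higher in young (8.58 to 26.0). A single cell held 61.6% of the young soft sum and 70.7% of the young stiff sum, and without that cell the young stiff excess over aged stiff was 2.32 log2 units. The gated cells with Pax7 had 1021 and 713 CPM in young soft and stiff and 313 and 418 CPM in aged soft and stiff. Spp1 was lower in aged than young on both substrates, with UMI ratios of 0.375 (0.353 to 0.399) on soft and 0.533 (0.508 to 0.560) on stiff. In cells with Pax7 its log2 ratios were -0.88 and -1.04. Igfbp5 was higher in aged, at ratios of 1.48 (1.31 to 1.67) and 1.70 (1.51 to 1.91), beside log2 ratios of 1.36 and 1.23 with Pax7. These intervals cover counting error only, and levels were uneven between cells. Single aged soft cells reached 9420 and 7887 CPM of Igfbp5, where the library mean was 2285 CPM. In aged stiff 1 cell at 11288 CPM held 37.4% of the sum. For Spp1, 1 aged soft cell reached 39985 CPM against a library mean of 4878, and 1 young stiff cell held 25.3% of the sum.

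Ly6a was 13.8 times higher in aged soft than young soft (36 against 3 UMIs, interval 4.35 to 69.8), 68.1% of it in 1 cell, and 3.33 log2 units higher with Pax7. Ccnd1 was 3.34 times higher in aged soft than young soft (1.64 to 7.34) and 1.84 times higher in aged stiff than young stiff (1.12 to 3.06). Hes1 was lower in aged stiff than young stiff, with a ratio of 0.318 (0.214 to 0.462). Cdkn1a was lower in young stiff than young soft by -1.50 log2 units over all 59 cells, and higher by 0.84 in the Acta1-low cells. Myod1 and Cdh15 stayed within 2-fold in all 4 comparisons, their log2 ratios lying between -0.53 and 0.76.

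In aged stiff against aged soft the named extremes were carried by few cells. Cyp26b1, a retinoic acid hydroxylase, had 35 UMIs in 3 of 15 aged soft cells and none in aged stiff, at least 11.6-fold against the same floor of 3 UMIs, with an exact interval from 8.93, and 1 cell held 88.5% of the sum. Saa3 and Ly6d took 97.7% and 93.7% of their aged stiff sum from 1 cell each. Plat, the tissue plasminogen activator, had 22 UMIs in 5 of 12 aged stiff cells against 1 in aged soft, a ratio of 22.2 (3.58 to 915). Plekhg2 had 12 UMIs in 6 of 12 aged stiff cells and none in aged soft.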

How the data were processed

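The submitters' processing notes name Cell Ranger 6.1.2 and Partek, with no roles; build and filters are not given in the sources used here. The 4 tables hold log2(CPM + 1) values deposited by the authors for 13772 genes a cell, with no deposited cell types. UMIs were recovered from the smallest steps, and 99.953% to 99.956% of non-zero values were whole within 0.05. A minimum of 500 genes per cell and a maximum of 20% mitochondrial UMIs left 5910 cells of 5913. No doublet caller was run, and no source says whether doublets were removed. Class means per library entered limma 3.58.1 (R 4.3.3), trend fit, library block, pseudocount 5, mean of at least 10 CPM, the 6 gate genes left out. The code was tested on simulated data. Count models were not used because the deposited unit is log2. The members, gene lists and markers were chosen with earlier results of these data known. Named genes were the 12 highest and 12 lowest called, 6 extremes each way of each library comparison, up to 3 a list by size, 5 by age term, and a standing list of 16. Of all these, 1 gene is not reported here. Alternatives were other pseudocounts, filters, scalings, gates, depth weighting and each library left out. Counts restricted to Acta1-low cells were added after seeing the data. P-values measure the spread between 4 libraries, for which separate animals are not documented.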

Additional observations from a re-analysis of the deposited data

How the results depend on the processing

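The limma counts of genes higher and lower without Pax7 (48 and 10) moved to 21 and 3 with pseudocount 1, to 85 higher with median-of-ratios scaling, to 27 lower with UMI sums, to 73 and 32 with depth weighting, to 24 lower against cells with at least 3 Pax7 UMIs, and to 73 and 28 without cells under 1% mitochondrial UMIs. They were 0 and 0 with no filter (420 and 1452 at an unadjusted p under 0.05), with a filter of 50 CPM (190 and 418), without the library block (327 and 828), and with Myog and Pclaf at 0 (94 and 469). Leaving out each library gave 0 to 179 higher and 0 to 123 lower. Of the 58 genes, 57 were called again with UMI sums, 54 with depth weighting and 24 with pseudocount 1. The age term went from 0 to 3 genes with Myog and Pclaf at 0. The cause was not tested. The last gate leaves 33 cells, and of the Acta1-high cells it keeps only 1, from aged soft, the others having Myog above 0.

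With Myog and Pclaf at 0, the share of kept cells was 0.441% in young soft, 0.811% in young stiff and 0.345% in aged stiff. Thinned to 5000 UMIs, 49.2%, 50.2%, 51.2% and 54.1% of gated cells had Pax7, in the report's order of libraries. With no filter, genes at least 2 times higher and lower numbered 1260 and 1109 (young, stiff against soft), 1423 and 992 (aged, stiff against soft), 1046 and 1650 (soft, aged against young) and 956 and 1228 (stiff, aged against young). With Myog and Pclaf at 0 they numbered 1002 and 1111, 1112 and 987, 1148 and 1401, and 884 and 917. In young stiff against soft, that gate reversed Myl1 (0.96), Myl4 (0.20) and Cdkn1a (4.53). Acta1-low cells alone, an alternative added after seeing the data, left these library counts within 1.5 times. Over single genes, 1319 of 1580 values of the Pax7 comparison and 436 of 489 between libraries kept direction and call or stayed within their spread. With 12 to 20 cells a library, the number of cells limits each library mean.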
